A study of Mus musculus with 9 samples.

Results

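The effect of removing the deubiquitinase Usp22 from regulatory T (Treg) cells that already lacked Usp21 was measured by comparing 3 Usp22/Usp21 dKO libraries with 3 Usp21 KO libraries, 6 of the 9 libraries of the series. The members were chosen by sample label alone, and all 14994 genes with enough counts for a test were compared. Cells came from mouse spleens and had been sorted as natural Treg cells on a YFP reporter of Foxp3, with no treatment. The genotype label reads Usp21 Treg KO for one group and Usp21/Usp22 Treg KO for the other, so loss of Usp21 is shared by both and the added loss of Usp22 is the labelled difference. The remaining 3 libraries were WT and entered the fit as a group of their own. No group lacking Usp22 alone was analysed here, so every difference below was measured on a background without Usp21. The promoter driving Cre, the deleted exons, strain, age and sex of the mice are not given in the sources used here, and differences between the mouse lines other than the targeted genes cannot be told apart from the added loss of Usp22.

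Usp22 is the catalytic subunit of the deubiquitinase module of SAGA, a coactivator complex that removes ubiquitin from histone H2B and also acts on other proteins. Usp21 is a separate deubiquitinase that has been linked to stabilisation of the Foxp3 protein. Foxp3 is the transcription factor on which Treg identity and suppressive function depend, and Treg cells rely on interleukin-2 signalling through STAT5 for their upkeep.

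Total counts ran from 18067377 to 40334577 per library over the 9 libraries. Levels are given as CPM, counts scaled to library size with TMM factors, and differences as log2 fold changes, dKO minus Usp21 KO, ± SE. Genes were called as passing where edgeR's quasi-likelihood test gave p under 0.05 after Benjamini-Hochberg adjustment over all 14994 genes. Usp21 KO replicate 2 stood apart. On the second principal component, which held 20.6% of the variance, it lay at -67.6 while the other libraries lay between -9.01 and 16. The first component held 40.3%, and on it the Usp21 KO libraries were spread, with replicates 1, 2 and 3 at -40.7, 20.6 and -4.88. Usp21 KO replicate 2 also differed in its list averages. Averaged over the 30 genes of the effector Treg list, its log2 CPM deviated from the mean of all libraries by 0.89, where Usp21 KO replicates 1 and 3 had -0.19 and -0.21. Over 22 resting T cell genes it deviated by -0.91, where they had 0.11 and 0.18. Results are therefore given with it and without it. T cell and Treg defining transcripts were present in every library of both groups. Cd3e, a subunit of the T cell receptor complex, ranged over 519 to 566 CPM in Usp21 KO and 489.5 to 526 CPM in dKO, Cd4 over 1051 to 1272 and 1063 to 1099.7 CPM, and Ctla4, a suppressive receptor, over 272 to 297 and 279 to 349 CPM. Cd8a, which marks the CD8 lineage, stood between 0.609 and 2.23 CPM in the 6 libraries.

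Usp22 fell in the dKO while Usp21 stood at a similar level in both groups. Usp22 (ENSMUSG00000042506, mm10 chromosome 11, 61151785 to 61175055, minus strand) was at 82.1, 64.8 and 74.4 CPM in Usp21 KO and at 28.7, 25.8 and 21.6 CPM in dKO. The dKO libraries all lay below every Usp21 KO library, with a log2 fold change of -1.54 ± 0.11 (adjusted p = 0.000152) and of -1.61 without Usp21 KO replicate 2 (adjusted p = 1.7e-06). Usp21 (ENSMUSG00000053483, chromosome 1, 171281945 to 171287991, minus strand) was at 28.1, 23.1 and 25.0 CPM in Usp21 KO and at 29.1, 28.5 and 26.1 CPM in dKO, with overlapping libraries and a log2 fold change of 0.13 ± 0.09 (adjusted p = 0.4). Foxp3 (ENSMUSG00000039521, chromosome X, 7573644 to 7595245, plus strand), the gene that the sort relied on, was at 828, 693 and 669 CPM in Usp21 KO and at 328, 372 and 299.8 CPM in dKO. It fell with a log2 fold change of -1.13 ± 0.10 (adjusted p = 0.000543), and of -1.15 without Usp21 KO replicate 2. In these bulk libraries fewer cells of a type and less RNA per cell cannot be told apart. Since the deleted exons are not given, reads of exons outside a deletion may still be counted for Usp21 and Usp22. The Foxp3 span also overlaps Ppp1r3f on the opposite strand, at 5.18 CPM in Usp21 KO and 4.82 CPM in dKO, a small share of the Foxp3 count. It further overlaps Ppp1r3fos on its own strand, at 13.6 CPM in Usp21 KO and 22.2 CPM in dKO.

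**Figure D1:**
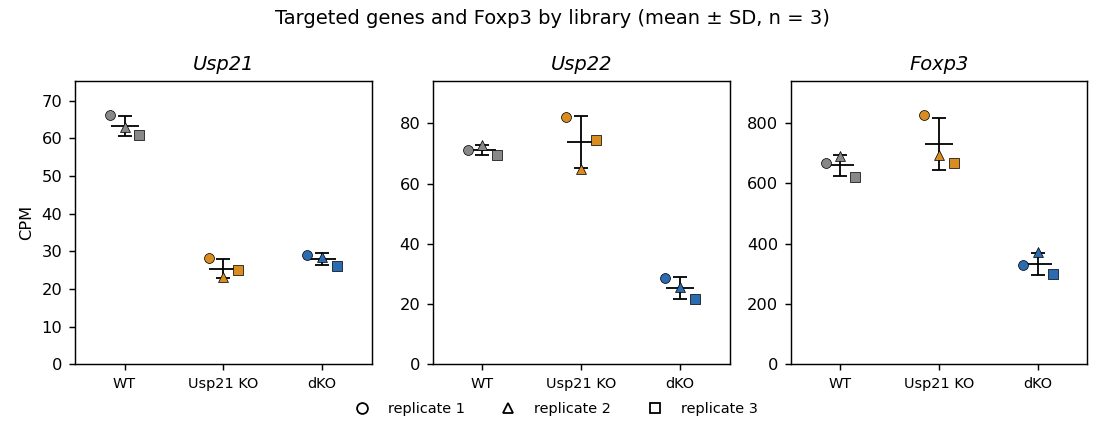
CPM of Usp21, Usp22 and Foxp3 in each library (points, shape by replicate number), with the mean and SD of each group (n = 3). Usp21 is low in both knockout groups, and the 3 dKO libraries lie below all other libraries in Usp22 and Foxp3.

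Across all genes, 735 of 14994 passed (4.90%), 255 higher in dKO (1.70%) and 480 lower (3.20%). The genes that rose did so by a median log2 change of 0.78 and those that fell by a median of -0.49, and 96 rises and 112 falls exceeded 2-fold. The 2 groups did not overlap in any of the 735, against 4101 of all genes tested (27.4%). An unadjusted p under 0.05 was held by 3542 genes. The count moved with single libraries, to 290 without Usp21 KO replicate 1, 2199 without Usp21 KO replicate 2, 190, 170 and 168 without dKO replicates 1, 2 and 3, and 340 and 388 without WT replicates 1 and 3. Genes that passed in each of the 6 fits without 1 Usp21 KO or dKO library numbered 126, of which 41 rose and 85 fell. The split by direction depended on scaling: with library totals in place of TMM, 654 rose and 281 fell, so rises made up 69.9% against 34.7%, and the median over all genes moved from -0.007 to 0.087. With all libraries, the genes named below as having passed and the list medians of dKO minus Usp21 KO printed below kept their direction under both scalings. Medians near 0 that are not printed below did not all do so. Those of the SAGA, hypoxia, TGF-beta, p53, amino acid and cholesterol lists lay between -0.067 and -0.006 with TMM. With library totals they lay between 0.027 and 0.086.

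Leaving out Usp21 KO replicate 2 raised the count to 2199 genes (14.7%), 1124 higher (7.50%) and 1075 lower (7.17%). Of the 735 genes that passed with all libraries, 719 passed again, all in the same direction, which is 97.8% of the first set and 32.7% of the second. The 16 that no longer passed had adjusted p between 0.0503 and 0.109. Among the 1124 genes that rose, Usp21 KO replicate 2 was the Usp21 KO library nearest to the dKO in 855, and among the 1075 that fell, in 685. Among the 255 rises with all libraries, replicate 2 was nearest in 109 and farthest in 87, and among the 480 falls nearest in 159 and farthest in 218. Usp21 KO replicate 1 was the farthest from the dKO in 693 of the 1124 rises and 597 of the 1075 falls. With all libraries it was farthest in 130 of the 255 rises and 202 of the 480 falls.

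**Figure D2:**
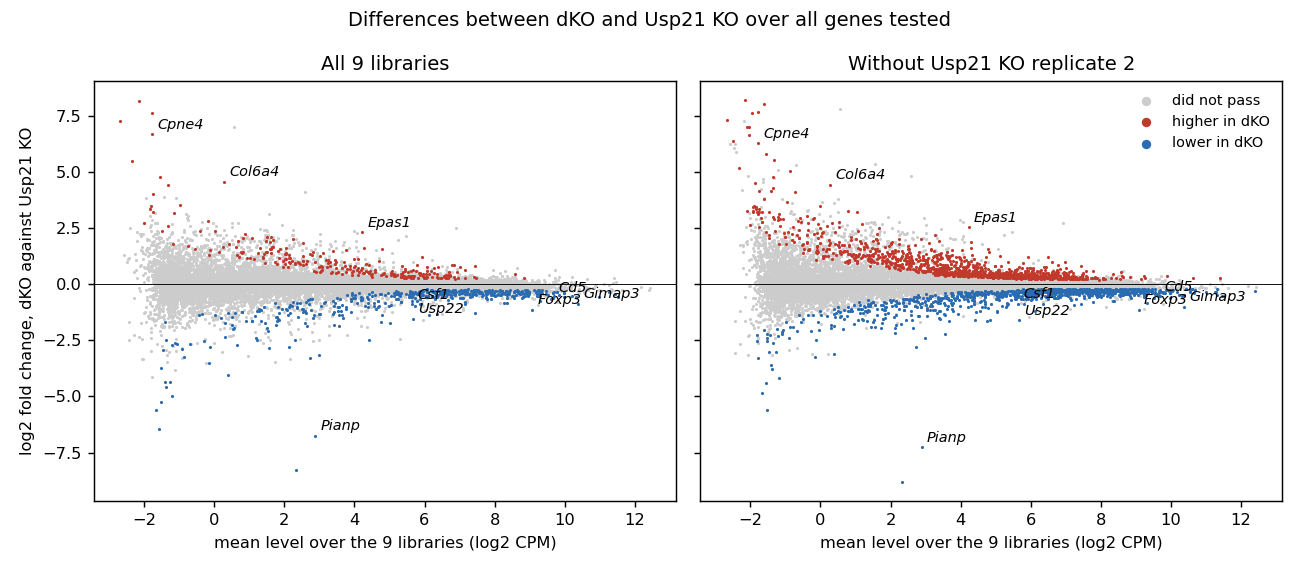
Log2 fold change of dKO against Usp21 KO (vertical) by mean log2 CPM over 9 libraries (horizontal) for each gene tested, with all libraries on the left and without Usp21 KO replicate 2 on the right. Red points passed higher in dKO (255 and 1124) and blue points lower (480 and 1075), and the named genes keep their side in both panels.

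The rises that passed in each of the 6 fits without 1 library included genes of the extracellular matrix, transport, oxygen response and homing. Col6a4 (ENSMUSG00000032572, chromosome 9, 105989454 to 106096783), a collagen VI chain, was at 0.360, 0.287 and 0.507 CPM in Usp21 KO and at 9.28, 9.62 and 8.14 CPM in dKO (4.56 ± 0.26, adjusted p = 6.25e-05). It was near the floor in WT as well, at 0.332 to 0.405 CPM, so the transcript was clearly present in the dKO libraries and scarce in the other 6. Epas1 (ENSMUSG00000024140, chromosome 17, 86753700 to 86833410), which encodes the hypoxia-inducible factor HIF-2 alpha, was at 10.1, 14.2 and 9.07 CPM in Usp21 KO and at 58.5, 59.0 and 48.0 CPM in dKO (2.31 ± 0.16, adjusted p = 0.000138). Its lowest dKO library lay over 3-fold above its highest Usp21 KO library. Slc43a1, an amino acid transporter, was at 9.17, 8.99 and 9.86 CPM against 28.5, 26.1 and 26.9 CPM (1.54 ± 0.10, adjusted p = 8.33e-05). For these genes the Usp21 KO libraries lay close to WT, where Epas1 stood at 10.1 to 11.5 CPM and Slc43a1 at 9.19 to 9.68 CPM.

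Ccr9, Cd160 and Nsmce1 were rises of this kind that started from a Usp21 KO level below WT. Ccr9, the chemokine receptor for homing to the small intestine, was at 10.6, 11.3 and 13.1 CPM in Usp21 KO and at 41.5, 33.9 and 31.1 CPM in dKO (1.61 ± 0.13, adjusted p = 0.000213), with WT between them at 17.2 to 18.6 CPM. Its span overlaps Lztfl1 on the other strand, at 10.2 CPM in Usp21 KO and 14.7 CPM in dKO on average. Cd160, an immunoglobulin-family receptor of cytotoxic lymphocytes, was at 10.2, 9.85 and 11.3 CPM against 22.1, 23.1 and 23.8 CPM (1.14 ± 0.10, adjusted p = 0.000425), and WT was at 15.5 to 17.5 CPM. Nsmce1, a subunit of the SMC5-SMC6 DNA repair complex, was at 41.4, 39.5 and 43.5 CPM against 96.8, 108 and 82.4 CPM (1.21 ± 0.09, adjusted p = 0.000213), and WT was at 55.3 to 58.0 CPM. In each of the 3 genes the dKO libraries lay above WT and the Usp21 KO libraries below it. By edgeR the difference between Usp21 KO and WT did not pass in any of the 3 (adjusted p of 0.197 to 0.242). C1qtnf6, a secreted C1q and TNF related protein (1.55 ± 0.11), Endod1 (0.77 ± 0.09) and Psat1, an enzyme of serine synthesis (0.59 ± 0.06), rose too, with adjusted p between 0.000152 and 0.00205. Cpne4, a calcium-dependent membrane-binding protein, had 2, 0 and 0 raw counts in Usp21 KO and 81, 58 and 136 in dKO, a depth-adjusted ratio of 118 with a 95% interval for counting error of 32.4 to 979. It had 0, 1 and 1 counts in WT, so it too was detected mainly in the dKO.

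Among the 10 largest rises at a mean of at least 1 log2 CPM, those that held in all 6 fits were Epas1, Ggt5, an enzyme that cleaves glutathione conjugates (2.10 ± 0.26), Klrb1c, the NK1.1 receptor (2.02 ± 0.26), and Ampd1, an AMP deaminase (1.85 ± 0.27). The other 6, Klrk1, Gzma, Ldlrad3, Itgam, Hpgd and Atp8b4, had log2 fold changes of 1.63 to 2.04 and passed in 1 or 2 of the 6 fits. They were low in both groups: Gzma, the cytotoxic granule protease granzyme A, was at 1.55, 3.78 and 1.69 CPM in Usp21 KO and 7.10, 8.89 and 10.9 CPM in dKO. Low level did not set them apart, since Ggt5 had means of 1.65 CPM in Usp21 KO and 6.98 CPM in dKO. Ldlrad3 did not pass without Usp21 KO replicate 2 (1.77, adjusted p = 0.0508). Further rises that held in all 6 fits, named after their values were seen, were Dpp4, the surface peptidase CD26 (0.64 ± 0.08), and Tox2, an HMG-box factor of follicular helper T cells (0.84 ± 0.12).

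The falls that passed in each of the 6 fits were in part small and uniform across libraries. Csf1 (ENSMUSG00000014599, chromosome 3, 107741048 to 107760469), the macrophage growth factor M-CSF, was at 62.8, 60.3 and 59.6 CPM in Usp21 KO and 34.1, 32.8 and 32.4 CPM in dKO (-0.88 ± 0.07, adjusted p = 0.00022). Rpl29, a ribosomal protein of the large subunit, was at 32.0, 28.2 and 31.1 CPM against 16.2, 15 and 15.1 CPM (-0.98 ± 0.08, adjusted p = 0.000386). Rpl29 has processed pseudogene copies that could take or give reads, so its level is uncertain. Within each group the libraries of both genes lay far closer together than the gap between the groups. Arhgef12, a guanine nucleotide exchange factor, fell by 0.67 ± 0.06, Rims3, a presynaptic scaffold protein, by 1.18 ± 0.11, Ces2c, a carboxylesterase, by 1.49 ± 0.14, Fbxo17, an F-box protein, by 1.36 ± 0.14, and Fah, the last enzyme of tyrosine breakdown, by 1.81 ± 0.18, with adjusted p between 0.000543 and 0.00116. Cbx7, a Polycomb repressor subunit, was at 428, 455 and 394 CPM against 225, 241 and 252 CPM (-0.83 ± 0.07, adjusted p = 0.000503). The Cbx7 span overlaps Apobec3 on the other strand, which itself stood at 347 CPM in Usp21 KO and 224 CPM in dKO on average, and with the strand setting not given the 2 genes may share reads. Falls of this kind named after their values were seen were Brd2, a BET-family reader of acetylated histones (-0.54 ± 0.08), Bcor, a Polycomb-associated corepressor (-0.46 ± 0.07), and Abhd14b, a hydrolase gene (-1.81 ± 0.24).

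**Figure D3:**
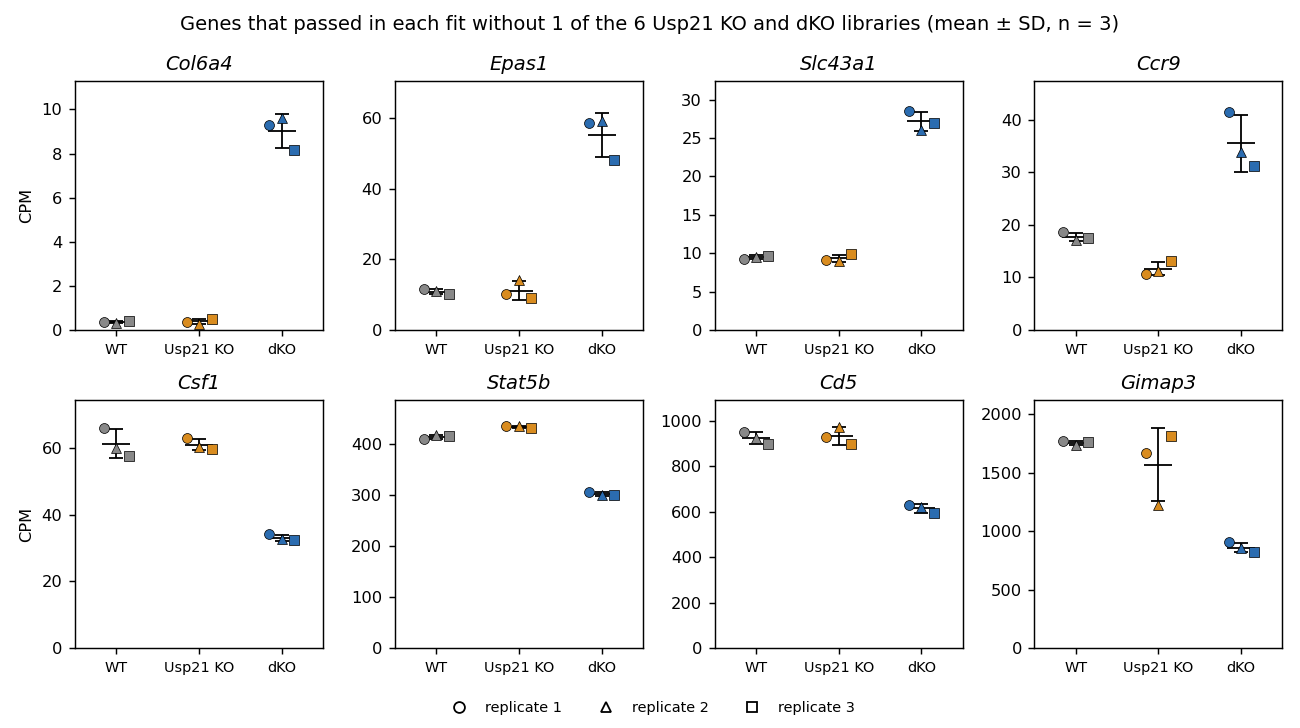
CPM by library (points, shape by replicate number) with group mean and SD (n = 3) for 4 genes that rose and 4 that fell in the dKO. In each panel the 3 dKO libraries lie clear of the 3 Usp21 KO libraries, for example 48.0 to 59.0 against 9.07 to 14.2 CPM for Epas1. The groups did not overlap in any of the 735 genes that passed.

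The largest falls carried a strong mark of Usp21 KO replicate 2. Cdcp1, a transmembrane protein phosphorylated by Src-family kinases, was at 12.4, 26.0 and 11.1 CPM in Usp21 KO and 1.41, 1.37 and 2.20 CPM in dKO (-3.29 ± 0.38, adjusted p = 0.00344), and it passed in all 6 fits. Dscam, a neuronal cell adhesion molecule, was at 16.1, 40.9 and 11.9 CPM against 2.92, 1.56 and 3.12 CPM (-3.15 ± 0.49, adjusted p = 0.0153). Nrn1, the GPI-anchored protein neuritin, was at 29.5, 95.3 and 27.4 CPM against 7.28, 12.0 and 8.44 CPM (-2.47 ± 0.51, adjusted p = 0.0413). In both, replicate 2 was the highest Usp21 KO library by a wide margin, and the others still lay above the dKO. The same held for Chmp4c (-2.83), Utf1 (-2.81), Jag1 (-2.50), a Notch ligand, Cpe (-2.49), Mid2 (-2.42) and Slc24a3 (-2.11). Without that library these 6 genes, Dscam and Nrn1 had log2 fold changes between -2.42 and -1.57, and each still passed, though each passed in no more than 3 of the 6 fits. Over all 480 falls the change shrank by more than 1.5 times without replicate 2 in 21 genes, and over the 255 rises in 0.

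Pianp, a PILR alpha-associated neural protein, had the largest fall of the genes named and the opposite pattern. It was at 36.4, 2.82 and 43.3 CPM in Usp21 KO and at 0.215, 0.147 and 0.353 CPM in dKO, against 77.5 to 84.3 CPM in WT. With all libraries its log2 fold change was -6.75 ± 1.19 (adjusted p = 0.0273) and it passed in 1 of the 6 fits, while without replicate 2 it was -7.25 (adjusted p = 1.82e-11). The dKO libraries held 22 counts of Pianp in all and the Usp21 KO libraries 2142.

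The Gimap GTPases, a family of immunity-associated proteins that support the survival of resting lymphocytes, sit side by side on chromosome 6. Of 8 members tested, 5 fell, against 3.20% of all genes, and 0 rose. Their median log2 fold change was -0.43 against -0.01 over all genes tested. Without Usp21 KO replicate 2, 6 fell, against 7.17% of all genes. The count of falls was 3 without dKO replicate 2. The promoter windows of the 4 members with the smallest p are printed below to show the sequence upstream of members that fell. They are RefSeq windows of build GRCm38.p6 that run from 250 bases before to 50 bases after the annotated start, 5′ to 3′ on the gene's strand: Gimap3 at chr6:48770802-48771101 (minus), Gimap6 at chr6:48708195-48708494 (minus), Gimap8 at chr6:48646984-48647283 (plus, the first of 2 listed windows) and Gimap1 at chr6:48738797-48739096 (plus). Capitals mark matches to a STAT motif (TTCNNNGAA) or a RUNX motif (TGTGGT, here read on the opposite strand).
Gimap3: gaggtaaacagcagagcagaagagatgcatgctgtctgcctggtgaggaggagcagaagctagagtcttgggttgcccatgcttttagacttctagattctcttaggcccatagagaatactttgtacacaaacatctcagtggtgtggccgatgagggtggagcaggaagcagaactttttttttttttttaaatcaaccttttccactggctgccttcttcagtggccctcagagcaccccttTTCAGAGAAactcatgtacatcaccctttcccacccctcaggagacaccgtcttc
Gimap6: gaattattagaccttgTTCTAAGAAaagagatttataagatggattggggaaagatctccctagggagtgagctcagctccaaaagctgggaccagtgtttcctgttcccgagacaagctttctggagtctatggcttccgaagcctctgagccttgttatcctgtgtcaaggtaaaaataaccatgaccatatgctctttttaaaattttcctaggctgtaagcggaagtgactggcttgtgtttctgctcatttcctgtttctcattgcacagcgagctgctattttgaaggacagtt
Gimap8: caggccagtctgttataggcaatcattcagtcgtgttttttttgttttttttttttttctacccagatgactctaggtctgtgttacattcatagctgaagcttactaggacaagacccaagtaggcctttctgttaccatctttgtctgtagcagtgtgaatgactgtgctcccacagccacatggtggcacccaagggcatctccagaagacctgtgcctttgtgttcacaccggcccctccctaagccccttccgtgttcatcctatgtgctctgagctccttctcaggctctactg
Gimap1: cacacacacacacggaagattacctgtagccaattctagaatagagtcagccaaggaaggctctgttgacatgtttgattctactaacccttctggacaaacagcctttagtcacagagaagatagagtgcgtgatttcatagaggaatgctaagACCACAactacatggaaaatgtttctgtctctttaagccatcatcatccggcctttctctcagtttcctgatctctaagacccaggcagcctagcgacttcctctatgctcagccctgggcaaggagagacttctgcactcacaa

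Both strands of each window were also searched for the ETS core CCGGAA, with no match in these 4 windows, and no matches overlapped. The STAT letters occurred once in Gimap3 and once in Gimap6, the RUNX letters once in Gimap1, and none of the 3 motifs in Gimap8. Over 10276 tested genes with a window the STAT letters were found in 7.08%, the RUNX letters in 13.3% and the ETS letters in 28.2%. In the windows of 183 genes that rose these shares were 5.46%, 17.5% and 19.7%, and in those of 349 genes that fell 8.02%, 12.0% and 20.3%. The windows of these sets also differed in base composition, with a median GC content of 57.0% for rises, 63.0% for falls and 60.3% for all, and the part of composition in the shares was not tested.

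Gimap3 was at 1666, 1222 and 1816 CPM in Usp21 KO and 904, 854 and 822 CPM in dKO (-0.87 ± 0.12, adjusted p = 0.00623). Gimap6 was at 779.7, 582 and 773 CPM against 436, 425 and 409.5 CPM (-0.75 ± 0.10, adjusted p = 0.00508). Gimap8 was at 557, 467 and 555 CPM against 369.6, 352 and 363 CPM (-0.54 ± 0.08, adjusted p = 0.0071). In these 3 genes Usp21 KO replicate 2 was the lowest library of its group and still lay above every dKO library, and each passed in all 6 fits. Gimap1 fell by 0.36 ± 0.06 (adjusted p = 0.01) and Gimap4 by 0.50 ± 0.11 (adjusted p = 0.0297). Gimap1 passed in 5 of the 6 fits and Gimap4 in 1. Gimap5, Gimap7 and Gimap9 did not pass. Gimap7 stood at 134, 117 and 150.0 CPM in Usp21 KO and 140.0, 138 and 128 CPM in dKO, with overlapping libraries.

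Against 3.20% of all genes that fell, 4 of 35 tested genes of Treg identity fell and 0 rose, and their median log2 fold change was -0.21. Beside Foxp3 these were Nrp1, a semaphorin and VEGF co-receptor that marks thymus-derived Treg cells (-0.50 ± 0.10), Socs2, a cytokine-induced inhibitor of STAT signalling (-0.77 ± 0.16), and Tnfrsf4, the costimulatory receptor OX40 (-0.59 ± 0.14), with adjusted p between 0.0201 and 0.0391. Foxp3 alone held in each fit without 1 library. The count of falls was 2 without Usp21 KO replicate 1, 6 without Usp21 KO replicate 3, 1 without dKO replicate 1, 2 or 3, and 2 without WT replicate 1 or 3. Without Usp21 KO replicate 2 it was 13, in a fit where 7.17% of all genes fell. Il2ra, the interleukin-2 receptor alpha chain CD25, was at 802, 662 and 720.3 CPM in Usp21 KO and 580.1, 645 and 602 CPM in dKO, and Ikzf2, which encodes Helios, at 584, 727 and 598 CPM against 422, 500.3 and 505 CPM. The groups did not overlap in either gene, though neither passed (adjusted p = 0.105 and 0.0798). Such lack of overlap was common, in 11 of the 35 genes of this list and in 27.4% of all genes tested. Without Usp21 KO replicate 2, Il2ra passed as lower (adjusted p = 0.0174) and Ikzf2 did not pass (adjusted p = 0.123).

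Genes of interleukin-2 and STAT5 signalling fell in 6 of 25 cases, against 3.20% of all genes, and rose in 0, with a median of -0.24. The mean log2 deviation over the list overlapped between the groups, at 0.19, 0.09 and -0.09 in Usp21 KO and -0.08, 0.03 and -0.16 in dKO. Stat5b, the transducer downstream of the interleukin-2 receptor, was at 434, 435 and 431 CPM in Usp21 KO and 306, 299 and 299 CPM in dKO (-0.52 ± 0.06, adjusted p = 0.00122). Its libraries varied by a few CPM within each group and it passed in all 6 fits. Stat5a (-0.27 ± 0.06), Osm, the cytokine oncostatin M (-0.46 ± 0.11), Ltb, lymphotoxin beta (-0.65 ± 0.10), Socs2 and Tnfrsf4 made up the rest. Stat5a passed in 1 of the 6 fits. Its span overlaps Stat3 on the other strand, at 481 CPM in Usp21 KO and 435 CPM in dKO, and the 2 genes may share reads. The list had 11 falls without Usp21 KO replicate 2, in a fit where 7.17% of all genes fell. It had 1 without dKO replicate 3, and 2 without any 1 of Usp21 KO replicate 1, dKO replicates 1 and 2 and WT replicates 1 and 3.

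In the NF-kB list 6 of 31 members fell, against 3.20% of all genes, and 0 rose. The median was -0.40, and 30 of 31 log2 fold changes were negative, against 7644 of 14994 over all genes. With library totals these became -0.31, 28 of 31 and 5546 of 14994. Rela, the p65 subunit, was at 265, 254 and 246 CPM in Usp21 KO and 203, 204 and 189 CPM in dKO (-0.36 ± 0.06, adjusted p = 0.0112). Traf3, an inhibitory adaptor of the non-canonical branch, was at 215, 224 and 200.1 CPM against 163, 166 and 162 CPM (-0.38 ± 0.06, adjusted p = 0.0094), and Ltb at 875, 1118 and 834 CPM against 618, 596 and 584 CPM (adjusted p = 0.00871). Tnip1, a brake on the pathway (-0.54 ± 0.10), Traf1 (-0.61 ± 0.13) and Nfkb1, which encodes p105 and p50 (-0.30 ± 0.07), also fell, so the falls covered subunits, targets and inhibitors of the pathway. The count was 13 without Usp21 KO replicate 2, 11 without Usp21 KO replicate 3, 3 without Usp21 KO replicate 1, 4, 3 and 1 without dKO replicates 1, 2 and 3, and 4 without WT replicate 1 or 3. Traf3 alone of the 6 passed in each fit.

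T cell receptor signalling genes fell in 3 of 32 cases, against 3.20% of all genes, and rose in 1, with a median of -0.12. Cd5, an inhibitory co-receptor whose level follows receptor signal strength, was at 928, 974 and 898 CPM in Usp21 KO and 631, 622 and 593 CPM in dKO (-0.60 ± 0.06, adjusted p = 0.00122). Cd6, its neighbouring paralog, was at 1056, 1155 and 978 CPM against 767, 799 and 738 CPM (-0.47 ± 0.07, adjusted p = 0.00859), and both passed in all 6 fits. Rasgrp1, a Ras activator, fell by 0.28 ± 0.07 and Themis, a T cell signalling adaptor, rose by 0.58 ± 0.12. Without Usp21 KO replicate 2 the list had 9 falls, and Rasgrp1 passed in 1 of the 6 fits.

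**Figure D4:**
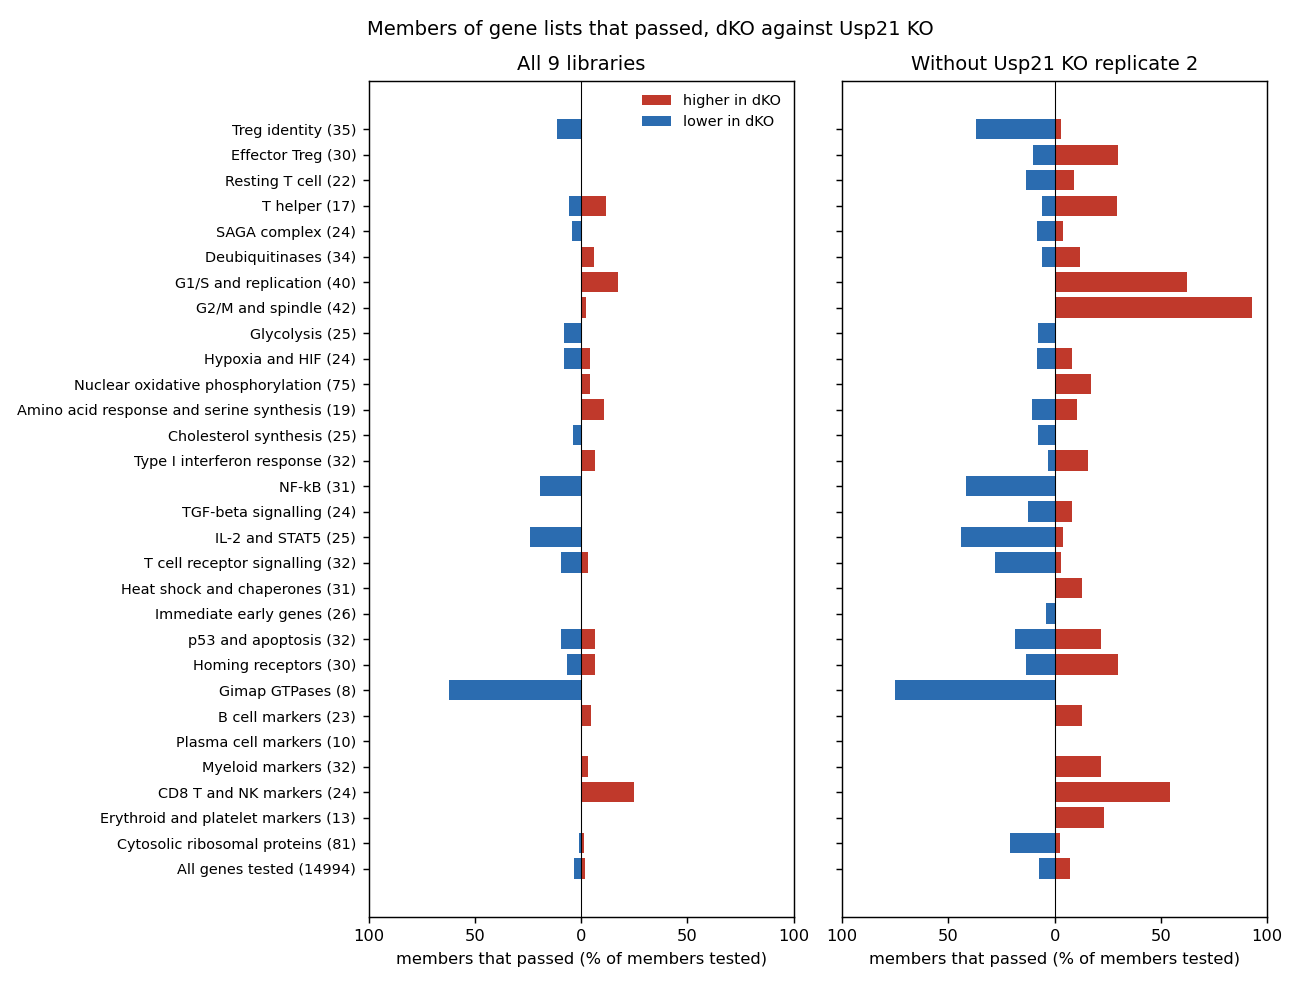
Share of each list's tested members (number in parentheses) that passed higher (red, right) or lower (blue, left) in dKO, with all libraries and without Usp21 KO replicate 2. The bottom bar gives the share over all 14994 genes, 1.70% higher and 3.20% lower on the left panel and 7.50% and 7.17% on the right.

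How many proliferation genes passed depended on Usp21 KO replicate 2. Among 40 G1/S and DNA replication genes 7 rose, against 1.70% of all genes, and 0 fell, with a median of 0.36. Without that library 25 rose, against 7.50% of all genes, with a median of 0.56. The 7 were Pole, a catalytic subunit of DNA polymerase epsilon (0.62 ± 0.11), the primase subunits Prim1 (0.63 ± 0.13) and Prim2 (0.61 ± 0.12), the helicase factor Cdc45 (0.73 ± 0.15), the transcription factor E2f1, the ubiquitin ligase adaptor Dtl and Rfc4, a clamp loader subunit. Among 42 G2/M and spindle genes 1 rose, the kinetochore gene Cenpf, at 8.31, 15.4 and 10.1 CPM in Usp21 KO and 22.4, 21.9 and 26.2 CPM in dKO (1.06 ± 0.21, adjusted p = 0.0217). All 42 had positive log2 fold changes, with a median of 0.68, and 39 rose without replicate 2, with a median of 1.20. The mean log2 deviation over this list was -0.40, 0.70 and -0.23 in Usp21 KO and 0.86, 0.76 and 0.82 in dKO, so replicate 2 lay near the dKO and the other 2 between the dKO and WT, which stood at -1.0, -0.94 and -0.57. Mki67, the Ki-67 antigen of cycling cells, was at 104, 245 and 109.9 CPM in Usp21 KO and 221, 199 and 208 CPM in dKO. It passed without replicate 2 (0.99, adjusted p = 0.000332) and not with it (0.45, adjusted p = 0.441). The 7 rises in the replication list became 0 without Usp21 KO replicate 1, dKO replicate 1 or dKO replicate 2, 1 without dKO replicate 3, 3 without Usp21 KO replicate 3 or WT replicate 1, and 4 without WT replicate 3. The rise of Cenpf was lost without Usp21 KO replicate 1 or 3 or any dKO replicate.

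**Figure D5:**
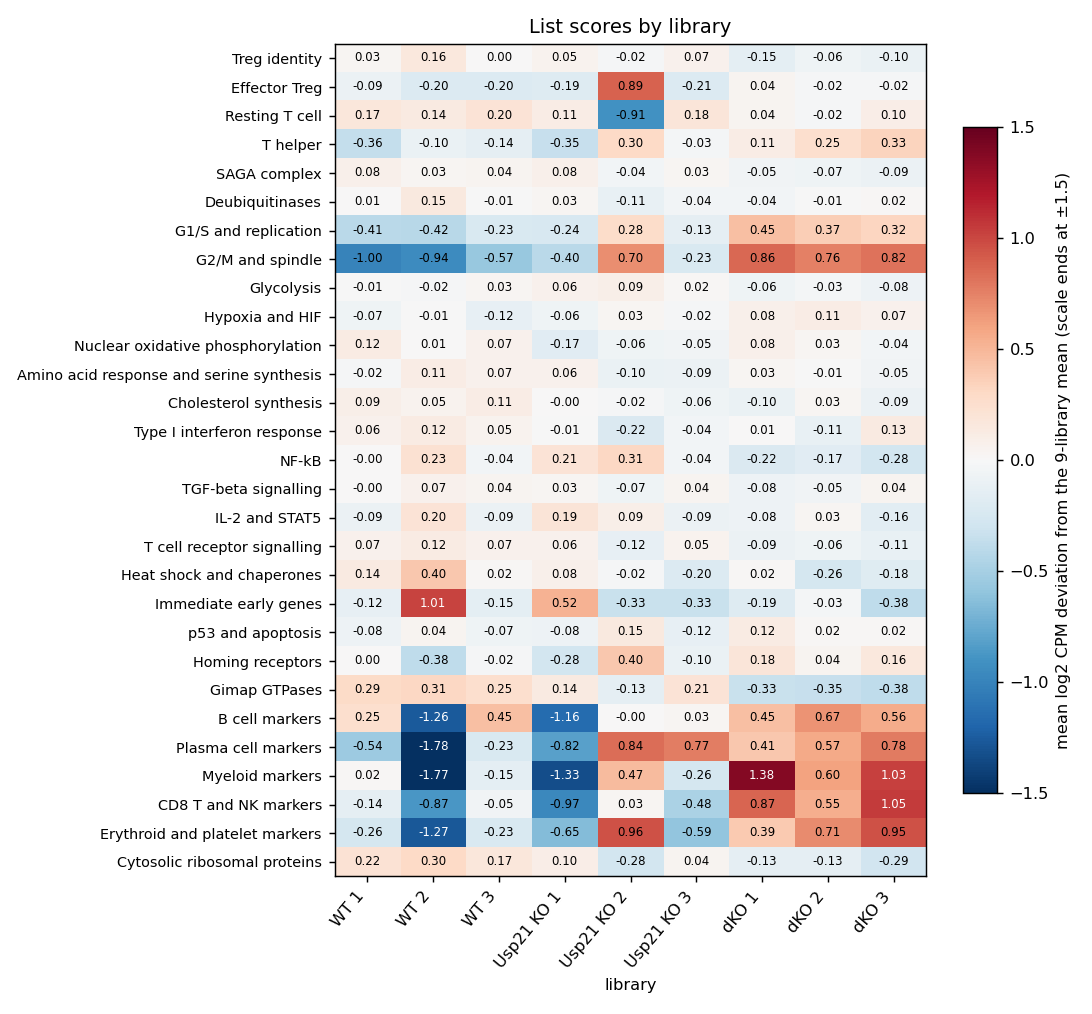
Mean log2 CPM deviation from the mean of all libraries over the members of each list (rows), by library (columns). Usp21 KO replicate 2 differs from replicates 1 and 3 of its group in the effector Treg (0.89), resting T cell (-0.91) and G2/M (0.70) lists, and the dKO libraries are highest in the G2/M list at 0.76 to 0.86.

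Genes that passed without Usp21 KO replicate 2 and not with it were chosen by that difference and are given as a description. Among the rises with the smallest p were Hmmr and Kif11, both of the mitotic spindle, Fignl1, a DNA repair ATPase, Plekhg3 and Pde3b, a phosphodiesterase. Kif11, a spindle motor, was at 18.9, 43.9 and 23.2 CPM in Usp21 KO and 48.2, 47.1 and 48.7 CPM in dKO, with log2 fold changes of 0.75 (adjusted p = 0.15) with the library and 1.22 (adjusted p = 7.61e-05) without it. Among the falls were Sorcs2, Rec8, Pam, H2-Ob and Lrrc32. Lrrc32 encodes GARP, which displays latent TGF-beta on activated Treg cells, and was at 464, 229 and 418 CPM in Usp21 KO and 259.8, 271 and 239.9 CPM in dKO (-0.53, adjusted p = 0.195, and without replicate 2 -0.76, adjusted p = 5.72e-05). Replicate 2 was the single Usp21 KO library below the dKO range of Lrrc32. Gpr83, an orphan receptor of Treg cells, was at 213, 45 and 209 CPM against 109, 91.7 and 130.5 CPM.

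The effector and resting Treg lists gave 0 genes that passed with all libraries by edgeR. At an unadjusted p under 0.05 there were 6 of 30 effector genes and 2 of 22 resting genes, and by DESeq2 5 and 1 passed, by limma voom 0 and 0. Over all 14994 genes the same 3 counts were 3542, 1728 and 864. Without replicate 2 the effector list had 9 rises and 3 falls and its median moved from -0.23 to 0.26, while the resting list had 2 rises and 3 falls. Itgae, the integrin alpha E chain, was at 170.2, 366 and 137 CPM in Usp21 KO and 103, 105 and 92.5 CPM in dKO (-1.16, adjusted p = 0.0948). Its log2 fold change was -0.60 without replicate 2 (adjusted p = 0.00535). Tcf7, a factor of resting T cells, was at 1103, 841 and 1254 CPM against 1352, 1309 and 1348 CPM, and its difference did not pass in either fit.

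Among T helper genes 2 of 17 rose and 1 fell. Cxcr5, the receptor that guides cells to B cell follicles, was at 79.0, 86.7 and 108 CPM in Usp21 KO and 154, 176 and 169.6 CPM in dKO (0.87 ± 0.11, adjusted p = 0.00381). Il4, the type 2 helper cytokine, was at 1.16, 1.91 and 1.92 CPM against 4.82, 5.28 and 4.94 CPM (1.61 ± 0.25, adjusted p = 0.00823). Both held in all 6 fits, while Stat6, the transducer of interleukin-4 signals, fell by 0.32 ± 0.07 and held in 2. In the homing list Ccr9 and Cxcr5 rose and the sphingosine phosphate receptor gene S1pr4 (-0.42 ± 0.09) and Selplg, which encodes the selectin ligand PSGL-1 (-0.39 ± 0.09), fell, 4 of 30, and the 2 falls became 0 without Usp21 KO replicate 1, any dKO replicate or WT replicate 3, 1 without WT replicate 1 and 4 without Usp21 KO replicate 3. Without Usp21 KO replicate 2 there were 9 rises and 4 falls in that list, and 5 rises and 1 fall among the T helper genes.

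Counts in the metabolic lists stand beside 1.70% of all genes that rose and 3.20% that fell. Without Usp21 KO replicate 2 these shares were 7.50% and 7.17%. In the hypoxia list Epas1 rose, and P4ha1, a collagen prolyl hydroxylase (-0.57 ± 0.12), and Ndrg1 (-0.53 ± 0.12) fell, so of 24 genes the 2 falls were typical targets of the hypoxia response. Hif1a, the paralog of Epas1, stood at 238, 314 and 256 CPM in Usp21 KO and 230.1, 245 and 279 CPM in dKO, with overlapping groups. In glycolysis Slc2a3, the glucose transporter GLUT3 (-0.62 ± 0.10), and Aldoc, an aldolase (-0.78 ± 0.16), fell among 25. Of 19 amino acid response and serine synthesis genes 2 rose, Psat1 and Mthfd2, a mitochondrial folate enzyme, at 76.9, 60.2 and 54.6 CPM against 114, 108 and 107 CPM (0.78 ± 0.11, adjusted p = 0.0071). Both held in all 6 fits. Of 75 nuclear oxidative phosphorylation genes Uqcr10, Uqcrc2 and Ndufb5 rose, by 0.27 to 0.36, none fell, and 13 rose without Usp21 KO replicate 2. The 3 rises became 0 without any 1 of the other 2 Usp21 KO libraries, the dKO libraries or WT replicates 1 and 3, and 1 without WT replicate 2. Over that list the median was 0.13 for dKO minus Usp21 KO, -0.16 for Usp21 KO minus WT and -0.03 for dKO minus WT, comparisons that share libraries. The 2 falls each of hypoxia and glycolysis became 0 without dKO replicate 2 or 3 and 1 without dKO replicate 1 or WT replicate 1. Without Usp21 KO replicate 1 there were 0 in hypoxia and 1 in glycolysis, and without WT replicate 3 1 in hypoxia. In cholesterol synthesis Srebf2, its main transcription factor, fell by 0.30 ± 0.07 among 25, in 1 of the 6 fits.

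In the p53 and apoptosis list 2 of 32 rose and 3 fell. Fasl, the death ligand, was at 5.40, 2.73 and 5.19 CPM in Usp21 KO and 11.3, 12.2 and 11 CPM in dKO (1.36 ± 0.25, adjusted p = 0.0155), and Bcl2l11, which encodes the pro-apoptotic BIM, rose by 0.87 ± 0.20. Sesn1 (-0.58 ± 0.09), Bbc3 (-0.45 ± 0.09), which encodes PUMA, and Trp53 itself (-0.36 ± 0.08) fell. The 2 rises became 0 without any dKO replicate, 1 without Usp21 KO replicate 1 or WT replicate 1 or 3 and 7 without Usp21 KO replicate 2. The 3 falls became 0 without dKO replicate 2, 1 without Usp21 KO replicate 1, dKO replicate 3 or WT replicate 1 or 3, and 6 without Usp21 KO replicate 2. Usp22 was the 1 gene of 24 SAGA subunits that passed, and the module partners of Usp22 did not: Atxn7l3 was at 213, 214 and 205 CPM in Usp21 KO and 191, 184 and 181 CPM in dKO, and Eny2 at 22.0, 23.3 and 23.2 CPM against 24.9, 26.8 and 30.6 CPM. Of 34 other deubiquitinases Psmd14, of the proteasome lid (0.26 ± 0.06), and Usp14 (0.31 ± 0.08) rose. In the type I interferon list Isg20 (0.36 ± 0.09) and Trim30a (0.31 ± 0.08) rose among 32. These 4 genes passed in 1 of the 6 fits each, the one without Usp21 KO replicate 2. Of 81 cytosolic ribosomal protein genes Rpl29 fell and Rpl13a, which also has pseudogene copies, rose (0.36 ± 0.08), with a median of -0.11, and 17 fell without Usp21 KO replicate 2.

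By edgeR 0 of 24 TGF-beta genes, 0 of 31 chaperones, 0 of 26 immediate early genes and 0 of 4 sex-linked genes passed with all libraries. At an unadjusted p under 0.05 these lists held 4, 4, 1 and 1 genes, against 3542 of all 14994 genes. DESeq2 passed 3, 0, 1 and 0 of them, against 1728 over all genes, and limma voom 1, 0, 0 and 0, against 864. Without Usp21 KO replicate 2 the TGF-beta list had 2 rises and 3 falls, the chaperones 4 rises and the immediate early genes 1 fall.

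Summed myeloid and CD8 T and NK marker transcripts were higher in every dKO library than in every Usp21 KO library, while sums of B cell, plasma cell and erythroid markers overlapped. The summed CPM of 35 myeloid markers was 122.6, 341.1 and 288.0 in Usp21 KO and 1102.6, 466.8 and 824.6 in dKO, and that of 26 CD8 T and NK markers was 75.1, 145.9 and 98.5 against 186.8, 150.7 and 182.4. In both sums Usp21 KO replicate 1 was the lowest library. Among 24 CD8 T and NK genes tested 6 rose, against 1.70% of all genes, and 0 fell, with a median of 1.44. The 6 were Klrb1c, Cd160, Klrk1, Gzma, Xcl1, a chemokine of cytotoxic cells (1.67 ± 0.30), and Klrc1, an NK inhibitory receptor (2.59 ± 0.52). The median was 1.53 over 32 myeloid genes, of which Itgam alone passed. Lyz2, the myeloid lysozyme, was at 21.6, 97.8 and 113 CPM in Usp21 KO and 623, 212 and 455 CPM in dKO and did not pass. The count of 6 became 2 without Usp21 KO replicate 1, dKO replicate 1 or dKO replicate 3, 3 without Usp21 KO replicate 3, 4 without dKO replicate 2 and 13 without Usp21 KO replicate 2, and Itgam passed in 2 of the 6 fits. The myeloid count was 7 without Usp21 KO replicate 2 and 4 without WT replicate 2.

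For 23 B cell markers the sums were 1353.4, 3203.3 and 2154.0 CPM against 1798.7, 2022.9 and 2000.2 CPM, and Pax5, the B cell lineage factor, rose (1.39 ± 0.33) in 2 of the 6 fits. For 10 plasma cell markers they were 417.9, 1412.2 and 1338.9 against 969.5, 816.9 and 1110.8 CPM, and for 16 erythroid and platelet markers 108.4, 191.4 and 92.7 against 138.4, 175.6 and 198.1 CPM. In these 3 sums the groups overlapped. The mean log2 deviation over the 23 B cell genes did not overlap, at -1.16, -0.0 and 0.03 in Usp21 KO and 0.45, 0.67 and 0.56 in dKO. Their median log2 fold change was 0.70, and 20 of 23 were positive. The groups did not overlap in 12 of these 23 genes, against 27.4% of all genes tested. By edgeR, DESeq2 or limma voom 0 plasma cell or erythroid genes passed, and 0 of either list had an unadjusted p under 0.05. Without Usp21 KO replicate 2, 3 B cell and 3 erythroid genes rose. Of all markers, Gp1bb alone was at 0 in the 6 libraries. Klrb1c, Klrk1, Gzma, Klrc1, Xcl1, Cd160 and Itgam are themselves members of the CD8 T and NK or myeloid lists, and Fasl is also expressed by cytotoxic cells. Hpgd, Atp8b4 and Ldlrad3 are in neither list. Within each group their lowest library was Usp21 KO replicate 1, dKO replicate 2 and WT replicate 2, as for Itgam and Lyz2. The part of admixed cells in the rises of all these genes was not tested.

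Genes that passed were also counted around both targeted genes and, outside the plan made at the start, around Foxp3 and Rpl29. Within 5 Mb of Usp22 and leaving out Usp22 itself, 6 of 108 genes passed (5.56%, against 4.90% over all genes), among them Larp1, a translation regulator of mRNAs for ribosomal proteins (-0.49 ± 0.08), Grap, an adaptor of lymphocyte signalling (-0.86 ± 0.16), Cops3, a COP9 signalosome subunit (0.42 ± 0.08), and Mprip (-0.37 ± 0.08). Within 5 Mb of Usp21, leaving it out, 3 of 89 passed (3.37%). The same count was 4 of 43 around Foxp3 (9.30%) and 10 of 154 around Rpl29 (6.49%), each gene itself left out. Cpne4, Col6a4, Rpl29 and Abhd14b, all named above, lie on chromosome 9 between 104547286 and 106452923. The part of linked differences between the mouse lines in their changes was not tested. The genes that fell had a higher median GC content of their transcripts than those that rose, 54.2% against 46.8%, with 49.5% over all genes. Their transcripts were also longer, 3878 against 3078 bases. The libraries themselves differed in their correlation with GC content. It was 0.13, 0.12 and 0.02 in Usp21 KO replicates 1, 2 and 3 and -0.0, -0.06 and -0.24 in the dKO replicates. For the log2 fold change it was -0.17. With a correction for GC content and length added after the data were seen, 588 genes passed, 244 higher and 344 lower.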

How the data were processed

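RNA of 9 sorted Treg libraries was sequenced, 3 each of WT, Usp21 KO and dKO. The authors deposited 1 table of raw counts per Ensembl gene with 54232 genes, of which 28792 had a count. Per the submitters' processing notes the tools were cutadapt 1.13, STAR, HTSeq 0.6.1p1 and DESeq2 1.14.1, and the build mm10. The strand setting and the annotation release are not given in the sources used here, so overlapping genes of opposite strands may share reads. The table itself paired 24187 IDs with a symbol, GENCODE M21, which also gave coordinates, named 29993 more, and 52 kept their ID.

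Counts were tested with edgeR 4.0.16 in R 4.3.3 (filterByExpr by group, 14994 genes; TMM; glmQLFit with robust dispersions; glmQLFTest) in 1 fit over the 9 libraries with group as the only term, and p-values were adjusted over all genes tested by Benjamini-Hochberg. The common biological coefficient of variation was 0.174. Chi-square per degree of freedom was at least 5.1 for every pair of libraries, so none was a duplicate of another. The labels number biological samples without naming animals, and p-values measure the spread between these samples. Intervals cover counting error only. The procedure was tested on simulated data.

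The comparison, the gene lists and the rule for named genes were chosen with earlier results of these data known. The rule named Usp21, Usp22 and Foxp3; the 10 largest rises and falls at a mean log2 CPM of at least 1; the 10 rises and falls with the smallest p that passed in every fit without 1 of the 6 libraries; up to 4 members of each list; up to 5 rises and 5 falls that passed only without Usp21 KO replicate 2; and up to 5 genes within 5 Mb of Usp22. Gene models without names, receptor segments and sex-linked genes were left out. Genes outside the rule, among them the defining markers, Dpp4, Tox2, Brd2, Bcor, Abhd14b, Gimap4, Gimap7, Traf1, Nfkb1, Osm, Bcl2l11, E2f1, Dtl, Rfc4, Mki67, Gpr83, Hif1a, Atxn7l3, Eny2 and Lyz2, were picked once their values were known. The alternatives tried were size factors by median ratio, library totals, 2 other low-count filters, DESeq2 1.42.0, limma voom (limma 3.58.1), the 6 libraries alone, a replicate block and leaving out each library. Added after seeing the data were the 5 libraries without Usp21 KO replicate 2, library totals without it, and a correction for GC content and length with and without it.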

Additional observations from a re-analysis of the deposited data

How the results depend on the processing

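Usp22 and Foxp3 fell and Usp21 did not pass under every alternative run, and the genes whose fold changes are given kept their direction in all of them. Against 735 genes (255 higher, 480 lower), DESeq2 passed 1728 (706 and 1022) and the 6 libraries alone 176 (67 and 109). Library totals gave 654 higher and 281 lower. Leaving out 1 library gave 168 to 2199 genes in all, 59 to 1124 higher and 108 to 1075 lower. Of the alternatives added after the data were seen, the 5 libraries without Usp21 KO replicate 2 passed 2044 (1098 and 946), library totals without that replicate 2591 (1900 higher), and the GC and length correction without it 2184 (1097 and 1087). The cause of these shifts was not tested. Over those genes, with 0 reversed, the alternatives chosen at the start left 1783 results on the same side of the threshold, took 476 below it and 49 above it.

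With the replicate number as a block 461 genes passed (153 higher, 308 lower). In their deviations from the group means, same-numbered libraries had correlations of -0.109, -0.136 and 0.073 between Usp21 KO and dKO, of -0.264, -0.268 and 0.161 between WT and Usp21 KO, and of 0.124, 0.259 and 0.118 between WT and dKO. The numbers were therefore not taken to pair the 2 groups compared.

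Groups of 3 libraries limit which genes can pass, and genes with few counts, such as Cpne4 in Usp21 KO and Pianp in dKO, have wide intervals.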
